A study of Mus musculus with 16 samples.

Results

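The collagen genes of mouse hindlimb muscle were examined after loss of the nerve. They were taken as every row of the deposited count table whose gene name has the form Col, a number, the letter a and a number, and 44 of 55487 rows met this rule. Of these 44 genes, 11 encode chains of fibrillar collagens, 6 encode the chains of collagen IV, the network collagen of basement membranes, and 27 belong to other classes. The other class held 6 collagen VI chains, 9 fibril-associated collagens (FACITs), 4 transmembrane collagens, 2 multiplexins (Col15a1 and Col18a1) and 6 network or other collagens. All mice were male C57BL/6J, 2 to 6 months old, and were studied 21 days after surgery on 1 leg. In the denervated mice (DEN) a piece of the sciatic nerve was cut out, and in the sham mice the nerve was located and left intact. Muscle fibers were freed from the extensor digitorum longus (EDL) with collagenase, and whole muscle was the tibialis anterior (TA), with 4 libraries in each of DEN fibers, sham fibers, DEN muscle and sham muscle. Fibers and whole muscle thus differed in both the preparation and the muscle, and these cannot be told apart. Collagenase cuts collagen protein and not RNA, and the study's methods give the digest as a way to remove cells outside the basal lamina that wraps each fiber. The fiber libraries still held RNA of such cells, with summed endothelial markers of 475 to 590.4 CPM in sham fibers beside 518 to 555 in sham muscle.

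Collagens are trimers of chains that wind into a triple helix. Fibrillar collagens such as types I and III build the tension-bearing fibrils of the connective tissue around muscle fibers, and FACITs sit on the surface of such fibrils. Collagen IV forms the sheet of the basement membrane around each fiber and each capillary, collagen VI links that sheet to the fibrils outside it, and transmembrane collagens stay anchored in the cell that makes them. In muscle most fibrillar collagen is known to come from fibroblast-like cells and tendon cells rather than from the fiber itself, while several of the rarer collagens are known from nerve-muscle contacts and from the ends of fibers at the tendon.

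Levels are given as normalised CPM, the usual unit of counts scaled to a common library size, here with TMM factors over all 16 libraries, in the order of replicates 1 to 4. Depth ran from 47570214 to 62297405 counted reads per library. The labels of surgery were checked with Chrng, the fetal subunit of the acetylcholine receptor, which stood at 0.135 to 0.402 CPM in sham fibers against 30.9 to 60.2 in DEN fibers, and at 0.0498 to 0.166 in sham muscle against 49.4 to 91.6 in DEN muscle. Myog, a myogenic regulator that is known to rise in denervated fibers, separated the surgery groups as well, at 3.65 to 4.08 against 49.4 to 88.5 CPM in fibers and 1.34 to 2.06 against 110.5 to 139 CPM in muscle. All 8 myofiber markers (Acta1, Ckm, Myh4, Myh1, Myh2, Tnnt3, Mylpf and Atp2a1) were counted in every group. Their sum ran from 165072 to 205690.0 CPM in sham fibers and 198073 to 225534 in sham muscle, but only 71905 to 95434 CPM in DEN fibers and 103691 to 111469 in DEN muscle. Of these 8 markers 5 were lower and 2 higher in DEN fibers, and 6 were lower and 1 higher in DEN muscle, and their part in the collagen changes after DEN was not tested. In bulk RNA, fewer cells of a type and less RNA per cell cannot be told apart.

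Some libraries stood apart in the collagens, and the results that rest on them are given with and without them. Sham fibers replicate 3 held the most Col1a1 of all 16 libraries, 938 CPM, where the other sham fiber libraries held 107, 118 and 284. The summed level of 8 tenocyte markers (Scx, Mkx, Tnmd, Fmod, Thbs4, Comp, Kera and Chad) was 183, 379, 1998 and 515 CPM in sham fibers, so that this library was also the highest of its group in tendon cell genes. The same sum was 703, 1026, 941 and 799 CPM in DEN fibers, 244, 94.1, 175 and 277 in sham muscle and 312, 361, 239.8 and 466 in DEN muscle, and no tenocyte marker was at 0 in any group. Of these 8 markers, 4 (Fmod, Kera, Comp and Thbs4) also stand in the list of fibril-associated proteins used further on. In whole muscle, DEN replicate 2 was high and DEN replicate 3 low in fibrillar collagens, with 696 and 166 CPM of Col3a1. The part of tendon or connective tissue RNA in these differences was not tested.

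After DEN single collagens were far higher or lower, from 3.68 for Col25a1 to -4.16 for Col9a1 on the log2 scale in fibers, while the median of the family stayed near 0. In fibers 42 of the 44 genes were tested, of which 11 were higher and 7 lower after DEN at an adjusted p below 0.05 in edgeR's quasi-likelihood F-test, with Benjamini-Hochberg adjustment over all tested genes. These are 26.2% and 16.7% of the tested collagens, beside 27.1% and 27.0% of all tested genes. In muscle 41 were tested, of which 12 were higher and 12 lower, 29.3% in each direction, beside 34.0% and 32.2% of all tested genes. With all libraries and this scaling, the share of collagens called lay below that of all genes in each direction, which did not hold with single libraries left out. Their median log2 fold change was 0.03 in fibers and 0.00 in muscle, beside 0.01 and 0.02 for all tested genes. Without sham fibers replicate 3 the fibers gave 21 higher and 7 lower of 43 tested, with a median of 0.60, and the higher genes were 48.8% of the collagens beside 28.2% of all genes. Without DEN muscle replicate 2 the muscle gave 10 higher and 16 lower, the lower genes being 39.0% of the collagens beside 30.7% of all genes. Without DEN muscle replicate 3 it gave 15 higher and 11 lower, the higher genes being 36.6% of the collagens beside 32.1% of all genes. The 2 DEN comparisons share no library. Side by side, 7 genes were higher in both preparations (Col4a5, Col6a5, Col8a1, Col19a1, Col23a1, Col25a1 and Col26a1), 6 were lower in both (Col4a3, Col4a4, Col9a1, Col9a2, Col22a1 and Col24a1), and 12 passed in neither. No collagen was called in opposite directions.

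These counts move with the scaling, since the TMM factors of the DEN libraries lay above those of the sham libraries. With total counts alone as library size, the median of all tested genes moved to 0.49 in fibers and 0.45 in muscle, and the split of all called genes moved from 4532 higher and 4515 lower to 9950 and 1494 in fibers, and from 5572 and 5273 to 9983 and 2273 in muscle. Among the collagens the count became 17 higher and 4 lower in fibers and 18 higher and 9 lower in muscle. The higher collagens were 40.5% of those tested in fibers and 43.9% in muscle, beside 59.5% and 60.95% of all genes. The lower collagens were then 9.52% of those tested in fibers and 21.95% in muscle, beside 8.93% and 13.9% of all genes. Changes below are relative to the TMM scaling, and the value on total counts is given where that scaling ends, adds or turns a call.

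**Figure D1:**
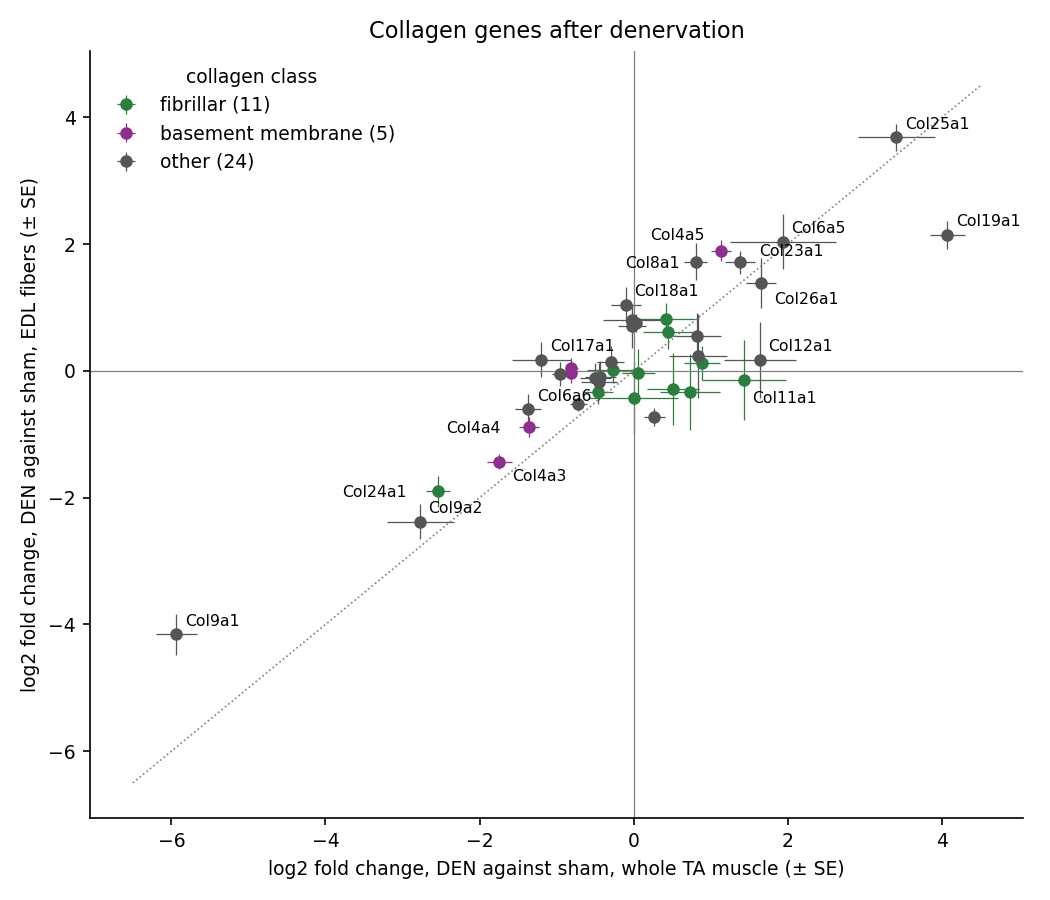
Log2 fold change after DEN in whole TA muscle (horizontal) and in EDL fibers (vertical) for the 40 collagen genes tested in both, with standard errors over 4 against 4 libraries. Green points are fibrillar, purple collagen IV (basement membrane) and grey other collagens, and the dotted line marks equal change: Col25a1 (3.41 in muscle, 3.68 in fibers) and Col9a1 (-5.93 and -4.16) lie far out in opposite directions, and Col1a1 and Col1a2 lie at -0.34 and -0.28 in fibers.

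Split by class, calls were counted beside all tested genes, of which 27.1% were higher and 27.0% lower in fibers and 34.0% and 32.2% in muscle. Of the 11 fibrillar genes, all tested, 1 was higher and 1 lower in fibers, and 2 were higher and 1 lower in muscle. These were 9.09% in each direction in fibers, and 18.2% and 9.09% in muscle. Of the collagen IV genes 1 was higher and 2 lower of 6 tested in fibers, and 1 was higher and 4 lower of 5 tested in muscle, where the class median was -0.82. Of the other collagens 9 were higher and 4 lower of 25 tested in fibers, and 9 were higher and 7 lower of 25 tested in muscle. Within that class, Col23a1 and Col25a1 of the 4 transmembrane genes were higher in each preparation, 2 of 9 tested FACITs were higher and 4 lower in fibers (3 and 2 with total counts), 3 of 8 were higher and 3 lower in muscle (4 and 2 with total counts), and none of the 5 tested network and other collagens was lower in fibers. The fibrillar count in fibers became 4 higher and 1 lower without sham fibers replicate 3, and that in muscle became 1 higher and 3 lower without DEN muscle replicate 2 and 5 higher and 1 lower without DEN muscle replicate 3. Without sham fibers replicate 3, 36.4% of fibrillar and 61.5% of other genes were higher in fibers, beside 28.2% of all genes. The fibrillar share in fibers thus depended on that library. With total counts 2 fibrillar genes were higher and 1 lower in fibers, and 5 were higher and 1 lower in muscle. Collagen IV genes became 4 higher and 1 lower in fibers and stayed at 1 and 4 in muscle. The other collagens became 11 higher and 2 lower in fibers and 12 and 4 in muscle. Beside these, 59.5% of all tested genes were higher and 8.93% lower in fibers, and 60.95% and 13.9% in muscle.

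Levels of different genes were compared on the deposited RPKM scale, which divides by gene length. In sham muscle Col4a1 (33.6 ± 5.02 RPKM, SD, n = 4), Col4a2 (32.1 ± 4.37), Col1a1 (25.9 ± 9.25) and Col3a1 (23.5 ± 7.34) led the family. In sham fibers Col1a1 (48.6 ± 54.4 RPKM), Col4a1 (37.2 ± 7.53), Col1a2 (36.0 ± 38.5) and Col4a2 (29.2 ± 6.31) were first, the type I chains with an SD above their mean and with replicate 3 far above the others. After DEN Col1a1 stood first in both preparations, at 52.5 ± 8.33 RPKM in fibers and 58.2 ± 32.6 in muscle, followed by Col4a1 (51.0 ± 9.46) in fibers and Col3a1 (42.2 ± 27.7) in muscle. Neighbours in each of these orders lay within 1 SD of each other. The genes with the largest changes were far lower. Col25a1 reached 0.357 ± 0.0520 RPKM in DEN fibers and Col9a1 0.905 ± 0.226 in sham muscle.

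Transmembrane collagens held the largest rise of a tested collagen in fibers. Col25a1 (ENSMUSG00000058897, chr3:130131501-130599877 of GRCm38) encodes a collagen that is known in mice to be made by muscle and to be needed for motor axons to reach it. It was counted at 0.419, 0.296, 0.309 and 0.190 CPM in the sham fiber libraries and at 3.36, 3.59, 3.76 and 4.77 in the DEN fiber libraries. In muscle the values were 0.0416, 0.0995, 0.231 and 0 CPM after sham and 1.02, 0.795, 1.31 and 0.964 after DEN. Every DEN library lay above every sham library in both preparations, and the sham muscle values rest on few reads. The fold change was 12.9 in fibers (log2 fold change 3.68 ± 0.22, adjusted p = 1.28e-06) and 10.6 in muscle (log2 fold change 3.41 ± 0.50, adjusted p = 0.000122), and the sizes were not shown to differ (difference of the log2 fold changes 0.26 ± 0.68, adjusted p = 0.828). Leaving out 1 library, the change in muscle ran from 2.98 to 4.46, highest without sham muscle replicate 3, and the difference ran from -0.76 to 0.75, with its sign turned without that library. Col23a1 (ENSMUSG00000063564, chr11:51289920-51583918), another membrane-anchored collagen, was counted at 3.59, 5.13, 4.88 and 3.30 CPM in sham fibers and 11.6, 15.1, 11.3 and 17.2 in DEN fibers. Col23a1 was at 1.44, 1.99, 1.17 and 1.12 CPM in sham muscle and 3.53, 3.66, 2.90 and 4.75 in DEN muscle. Again the groups did not overlap, with a 3.27-fold rise in fibers (log2 fold change 1.71 ± 0.19, adjusted p = 4.85e-05) and a 2.60-fold rise in muscle (log2 fold change 1.38 ± 0.20, adjusted p = 0.000111). The remaining transmembrane genes were not called higher. Col13a1, which encodes the transmembrane collagen known from the neuromuscular synapse, stayed below 6 CPM and did not pass in either preparation (0.70 in fibers with adjusted p = 0.117, and -0.02 in muscle with adjusted p = 0.932). It passed in fibers without sham fibers replicate 3 (1.23) and with total counts (1.17). Col17a1, the hemidesmosome collagen of epithelia, stayed below 0.4 CPM in each library and was lower in muscle (log2 fold change -1.20 ± 0.38, adjusted p = 0.0167), a call that was lost with total counts at -0.77.

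The stretch upstream of a gene's start is printed for 3 genes called higher and 2 called lower in both preparations, since members that move the same way invite a look at their promoters. Each holds the 250 bases before the start in the RefSeq table of GRCm38.p6, read 5′ to 3′ on the strand of the gene, and such windows were found for 35 of the 44 genes. That of Col19a1 is only 215 bases long and ends where the gene model of the files begins. Capitals mark the GC box GGGCGG, the motif of Sp1-like factors, and the E-box CAGCTG, the motif favoured by myogenic factors, each searched on both strands, and the marked letters of the motifs overlap nowhere.
Col25a1: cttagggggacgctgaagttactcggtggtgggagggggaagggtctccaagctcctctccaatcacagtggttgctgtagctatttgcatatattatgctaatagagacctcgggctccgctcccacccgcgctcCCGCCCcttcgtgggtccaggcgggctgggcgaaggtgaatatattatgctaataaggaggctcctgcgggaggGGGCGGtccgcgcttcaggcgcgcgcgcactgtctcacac
Col23a1: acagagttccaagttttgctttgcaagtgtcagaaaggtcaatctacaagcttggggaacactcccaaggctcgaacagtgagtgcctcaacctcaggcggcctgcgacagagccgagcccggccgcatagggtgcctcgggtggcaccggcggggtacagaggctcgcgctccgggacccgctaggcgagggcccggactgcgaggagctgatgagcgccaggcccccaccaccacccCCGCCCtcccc
Col19a1: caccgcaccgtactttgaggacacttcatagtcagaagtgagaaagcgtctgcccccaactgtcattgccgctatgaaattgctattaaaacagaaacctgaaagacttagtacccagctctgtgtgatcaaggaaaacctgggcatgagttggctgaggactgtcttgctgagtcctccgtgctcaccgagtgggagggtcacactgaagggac
Col9a1: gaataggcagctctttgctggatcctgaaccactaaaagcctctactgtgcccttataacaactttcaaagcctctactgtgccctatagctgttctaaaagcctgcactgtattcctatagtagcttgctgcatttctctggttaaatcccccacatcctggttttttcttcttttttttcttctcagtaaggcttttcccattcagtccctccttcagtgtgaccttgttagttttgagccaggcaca
Col24a1: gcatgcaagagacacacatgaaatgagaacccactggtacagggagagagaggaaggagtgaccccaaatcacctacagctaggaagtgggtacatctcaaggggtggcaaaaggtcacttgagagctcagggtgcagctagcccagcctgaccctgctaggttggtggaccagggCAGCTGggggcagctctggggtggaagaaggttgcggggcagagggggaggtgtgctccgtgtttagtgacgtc
The windows lie at chr3:130180595-130180844, chr11:51289670-51289919, chr1:24587473-24587687 (minus strand), chr1:24177360-24177609 and chr3:145292222-145292471, and that of Col25a1 lies inside the longer gene model of the files, whose start is further upstream. The Col25a1 window held 2 GC boxes and no E-box, that of Col23a1 held 1 GC box, that of Col24a1 held 1 E-box, and those of Col9a1 and, over its 215 bases, Col19a1 held neither. Over all 32851 windows of 250 bases 32.7% held a GC box and 13.0% an E-box, and among the 38 collagen windows, with more than 1 for some genes, these were 22 and 6. No motif stood in all the windows of 1 direction.

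Among the FACITs, Col19a1 rose and both called collagen IX chains fell. Col19a1 (ENSMUSG00000026141, chr1:24261890-24587472) encodes a collagen known in mice from the muscle of the oesophagus and from synapse formation in the brain. It was counted at 1.62, 1.14, 1.02 and 1.82 CPM in sham fibers and 6.79, 6.91, 6.67 and 4.33 in DEN fibers. In muscle it was nearly silent after sham, at 0.166, 0.0995, 0.154 and 0.0772 CPM, and stood at 1.73, 2.18, 2.55 and 2.13 after DEN. No DEN value reached down to a sham value. The rise was 4.44-fold in fibers (log2 fold change 2.15 ± 0.22, adjusted p = 3.41e-05) and 16.8-fold in muscle (log2 fold change 4.07 ± 0.23, adjusted p = 9.06e-08), and the difference between the preparations passed the test (-1.93 ± 0.37, adjusted p = 0.00207). The smaller rise in fibers went with a higher sham level, since sham fibers held 10.9 times the level of sham muscle (log2 fold change 3.44 ± 0.30, adjusted p = 1.55e-05).

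Col9a1 (ENSMUSG00000026147, chr1:24177610-24252684), a chain of the collagen IX of cartilage, showed the largest fall of a tested collagen in both preparations. Its level was 7.20, 4.88, 5.23 and 4.21 CPM in sham muscle and 0.0601, 0.140, 0.0828 and 0.0536 in DEN muscle. In fibers it was 5.21, 3.21, 2.18 and 2.90 CPM after sham and 0.243, 0.209, 0.125 and 0.168 after DEN. The lowest sham library was thus far above the highest DEN library in each preparation. The level was 61.2-fold lower in muscle (log2 fold change -5.93 ± 0.27, adjusted p = 1.77e-08) and 17.8-fold lower in fibers (log2 fold change -4.16 ± 0.32, adjusted p = 6.39e-06). The difference of 1.77 ± 0.52 between preparations (adjusted p = 0.0263) was lost without DEN fibers replicate 1, DEN muscle replicate 1 or DEN muscle replicate 4, where it was 1.66, 1.67 and 1.66. Col9a2, which encodes a partner chain, was at 1.41, 1.23, 1.58 and 0.952 CPM in sham fibers and 0.211, 0.374, 0.167 and 0.236 in DEN fibers. Col9a2 was at 0.250, 0.547, 0.500 and 0.463 CPM in sham muscle and 0.135, 0.0419, 0.0331 and 0.0357 in DEN muscle. These groups did not overlap either, and Col9a2 fell in both (log2 fold change -2.38 ± 0.27, adjusted p = 6.58e-05 in fibers; log2 fold change -2.77 ± 0.44, adjusted p = 0.000217 in muscle). Without DEN muscle replicate 1 the fall of Col9a2 in muscle was -3.49. Col9a3, the remaining chain of the trimer, was below 0.7 CPM in each library and did not pass in fibers (log2 fold change -0.79 ± 0.32, adjusted p = 0.0623), though it passed without sham fibers replicate 4. In muscle it was too low to test.

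**Figure D2:**
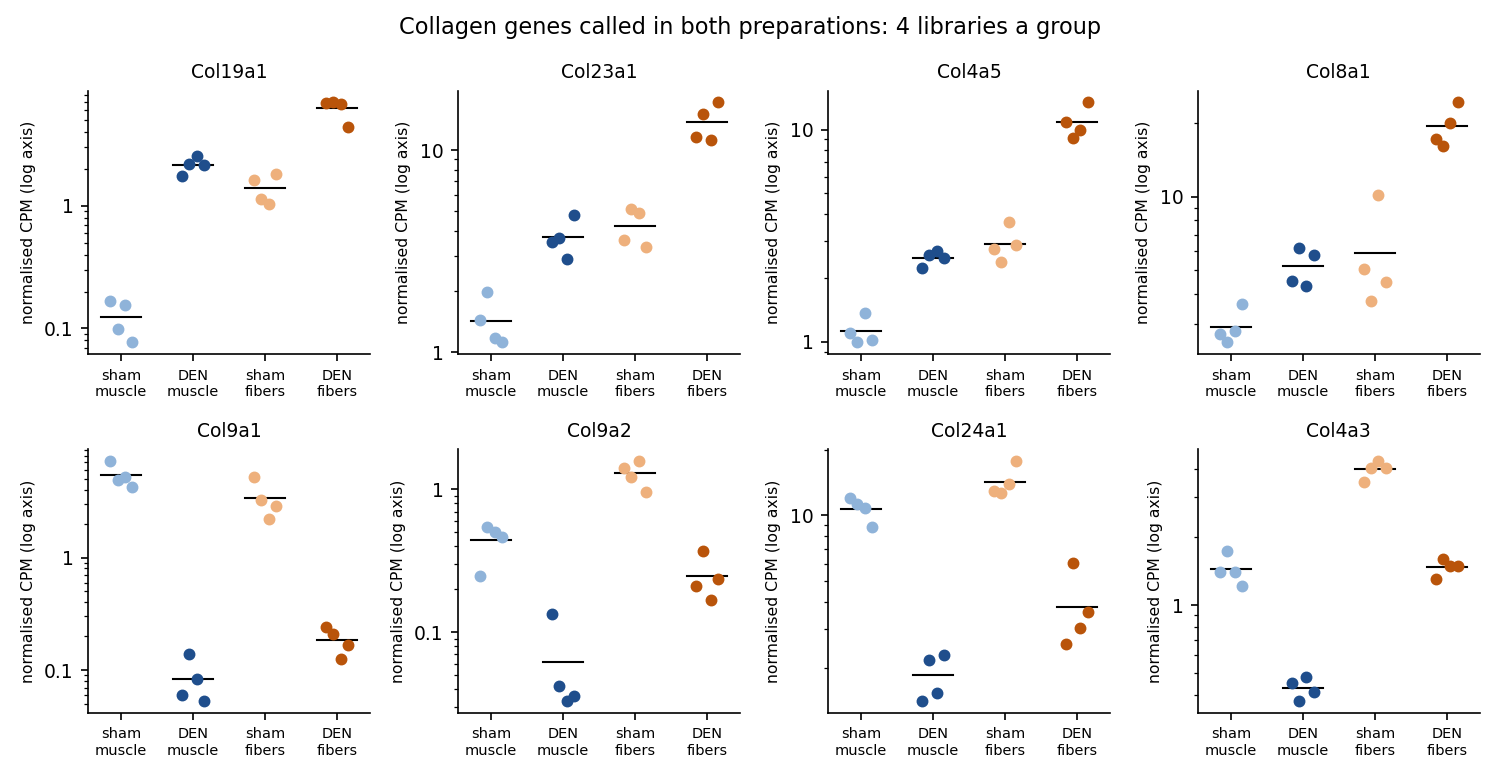
Normalised CPM (log axis) of 8 collagen genes in the 4 libraries of each group, with the group mean as a bar. The upper row holds genes higher and the lower row genes lower after DEN in both preparations, and in each panel the DEN and sham points of a preparation do not overlap, as for Col9a1, where sham muscle lies between 4.21 and 7.20 and DEN muscle between 0.0536 and 0.140.

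Col22a1 and Col20a1 fell less, in calls that rest on the scaling. Col22a1 (chr15:71795795-72034227), the collagen of tissue junctions such as the one between fiber and tendon, was at 57.2, 56.5, 58.0 and 51.1 CPM in sham fibers and 33.7, 46.7, 34.9 and 38.2 in DEN fibers. Col22a1 was at 48.7, 36.3, 42.4 and 40.1 CPM in sham muscle and 25.3, 30.2, 20.5 and 26.5 in DEN muscle. The surgery groups were separate on this scale and Col22a1 fell (log2 fold change -0.53 ± 0.10, adjusted p = 0.00154 in fibers; log2 fold change -0.72 ± 0.11, adjusted p = 0.000231 in muscle), but with total counts as library size the changes were -0.05 and -0.29, neither passed and the groups overlapped in both. Col20a1 was at 11.8, 12.6, 13.9 and 8.93 CPM in sham fibers and 6.21, 8.55, 6.95 and 6.65 in DEN fibers. Col20a1 was at 2.25, 3.48, 2.50 and 2.92 CPM in sham muscle and 3.62, 3.31, 3.18 and 3.34 in DEN muscle. The fiber groups were separate and the muscle groups overlapped. Col20a1 was lower in fibers (log2 fold change -0.73 ± 0.15, adjusted p = 0.00217) and did not pass in muscle (0.27, adjusted p = 0.0991), and the difference between the preparations passed at -1.01 ± 0.21 (adjusted p = 0.0034). With total counts the fiber call was lost at -0.24 and muscle passed at 0.70, while the difference still passed at -0.94.

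Col12a1, Col14a1 and Col16a1, which encode FACITs of tendon and connective tissue fibrils, varied with the libraries that stood apart. Col12a1 was at 8.61, 19.4, 93.3 and 19.5 CPM in sham fibers and 29.2, 41.4, 38.0 and 50.6 in DEN fibers. Col12a1 was at 3.75, 2.02, 3.25 and 4.96 CPM in sham muscle and 6.61, 18.9, 3.50 and 15.3 in DEN muscle. Sham fibers replicate 3 exceeded every DEN fiber library, and Col12a1 passed in muscle (log2 fold change 1.64 ± 0.47, adjusted p = 0.01) but not in fibers (0.18, adjusted p = 0.824). Leaving that library out, the change in fibers was 1.32 and passed (adjusted p = 0.00315). Col16a1 was at 6.65, 8.09, 24.6 and 8.57 CPM in sham fibers and 16.7, 17.4, 18.6 and 17.6 in DEN fibers, and at 6.18, 4.48, 5.27 and 6.87 CPM in sham muscle and 8.89, 15.6, 4.42 and 11.8 in DEN muscle. It was called higher in muscle (log2 fold change 0.82 ± 0.31, adjusted p = 0.0356), where the groups overlapped, and the call was lost without DEN muscle replicate 2 or 4 or sham muscle replicate 1, 2 or 3 (0.54 to 1.07 over the 8 fits without 1 library). In fibers Col16a1 did not pass (0.55, adjusted p = 0.225) but did so without sham replicate 3 (1.17) and with total counts (1.02). Col14a1 was at 8.25, 4.90, 8.26 and 4.53 CPM in sham fibers and 10.7, 7.98, 14.2 and 11.96 in DEN fibers. Its DEN muscle values of 4.27, 13.4, 3.11 and 7.20 CPM surrounded the sham muscle values of 8.93, 6.37, 5.23 and 7.76. Col14a1 was higher in fibers (log2 fold change 0.80 ± 0.24, adjusted p = 0.0171), a call lost without DEN fibers replicate 3 (0.66), and did not pass in muscle (-0.02, adjusted p = 0.965).

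The fibrillar collagens of types I, III and V showed wide spreads, and the chains of type I passed in neither preparation. Col1a1 (chr11:94936224-94953042) was at 107, 118, 938 and 284 CPM in sham fibers and 305, 242, 316 and 275 in DEN fibers. In muscle Col1a1 was at 275, 128, 158 and 236 CPM after sham and 232, 543, 133 and 427 after DEN. The groups overlapped in both, and the changes were -0.34 ± 0.60 in fibers (adjusted p = 0.659) and 0.73 ± 0.39 in muscle (adjusted p = 0.118). With sham fibers replicate 3 left out the change in fibers was 0.74 (adjusted p = 0.0698), and without DEN muscle replicate 3 that in muscle was 1.00 (adjusted p = 0.0174). With total counts Col1a1 passed in muscle at 1.17. Col1a2, the other chain of type I, was at 159, 190.1, 1281 and 403 CPM in sham fibers and 447, 368, 449 and 399.5 in DEN fibers, and at 279, 162, 178 and 228 CPM in sham muscle and 208, 476, 136 and 394 in DEN muscle. Its groups overlapped too, with -0.28 ± 0.57 in fibers (adjusted p = 0.695) and 0.51 ± 0.34 in muscle (adjusted p = 0.208), and it passed in muscle with total counts (0.94) and without DEN muscle replicate 3 (0.75). In fibers the sign of Col1a2 turned without sham replicate 3, at 0.73 (adjusted p = 0.0548).

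Col3a1 (chr1:45311538-45349706), the type III collagen of loose connective tissue, was at 182, 101, 231 and 137 CPM in sham fibers and 279, 200.3, 355 and 307 in DEN fibers. Col3a1 was at 382, 221, 206 and 271 CPM in sham muscle and 237, 696, 166 and 349.8 in DEN muscle. The fiber groups overlapped in 1 pair of libraries, and Col3a1 was higher in DEN fibers by 1.76-fold (log2 fold change 0.81 ± 0.25, adjusted p = 0.0196), a call lost without DEN fibers replicate 3 at 0.69. In muscle it did not pass (0.41, adjusted p = 0.355), and the sign turned without DEN replicate 2 (-0.11). In sham fibers replicate 3 Col3a1 was less raised than the type I chains. Per length, its level relative to Col1a1 was 0.165 in that library and 1.13, 0.574 and 0.322 in the other sham fiber libraries, against 0.552 to 0.749 in DEN fibers.

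Type V collagen starts and limits the growth of type I fibrils. The ratio of Col5a2 to Col5a1 RNA stood higher after DEN, and these libraries hold no measure of the protein. Col5a1 was at 48.7, 39.8, 77.5 and 40.9 CPM in sham fibers and 48.2, 43.5, 66.2 and 50.6 in DEN fibers, and Col5a2 was at 36.5, 29.7, 72.7 and 34.3 CPM in sham fibers and 59.9, 56.5, 90.0 and 59.2 in DEN fibers. In muscle Col5a1 was at 67.9, 51.4, 45.9 and 54.9 CPM after sham and 30.3, 86.5, 21.6 and 45.8 after DEN, and Col5a2 was at 46.4, 34.8, 30.9 and 35.4 CPM after sham and 36.9, 90.5, 24.1 and 50.8 after DEN. Neither passed in either preparation (Col5a1 0.02 in fibers and -0.27 in muscle; Col5a2 0.62 and 0.45), with adjusted p from 0.0824 to 0.957. Col5a2 did pass in fibers without sham replicate 3 (0.99), in muscle without DEN replicate 3 (0.68) and in both with total counts (1.11 and 0.88). Within each library the level of Col5a2 per level of Col5a1, both per length, was 0.575 to 0.610 in sham muscle and 0.934 to 1.09 in DEN muscle, and 0.666 to 0.837 in sham fibers and 1.04 to 1.21 in DEN fibers. The ratio does not depend on library scaling, its surgery groups did not overlap in either preparation, and it was chosen after the values were seen and carries no test. Col5a3, the third chain, was at 52.7, 49.3, 82.2 and 48.1 CPM in sham fibers, 41.9, 43.1, 59.9 and 38.5 in DEN fibers, 92.7, 77.0, 71.9 and 74.0 in sham muscle and 46.3, 82.2, 38.9 and 63.3 in DEN muscle. It passed in neither (-0.33 with adjusted p = 0.17 in fibers, and -0.46 with adjusted p = 0.0564 in muscle). Without DEN muscle replicate 2, Col5a1 and Col5a3 were called lower in muscle (-0.76 and -0.68).

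**Figure D3:**
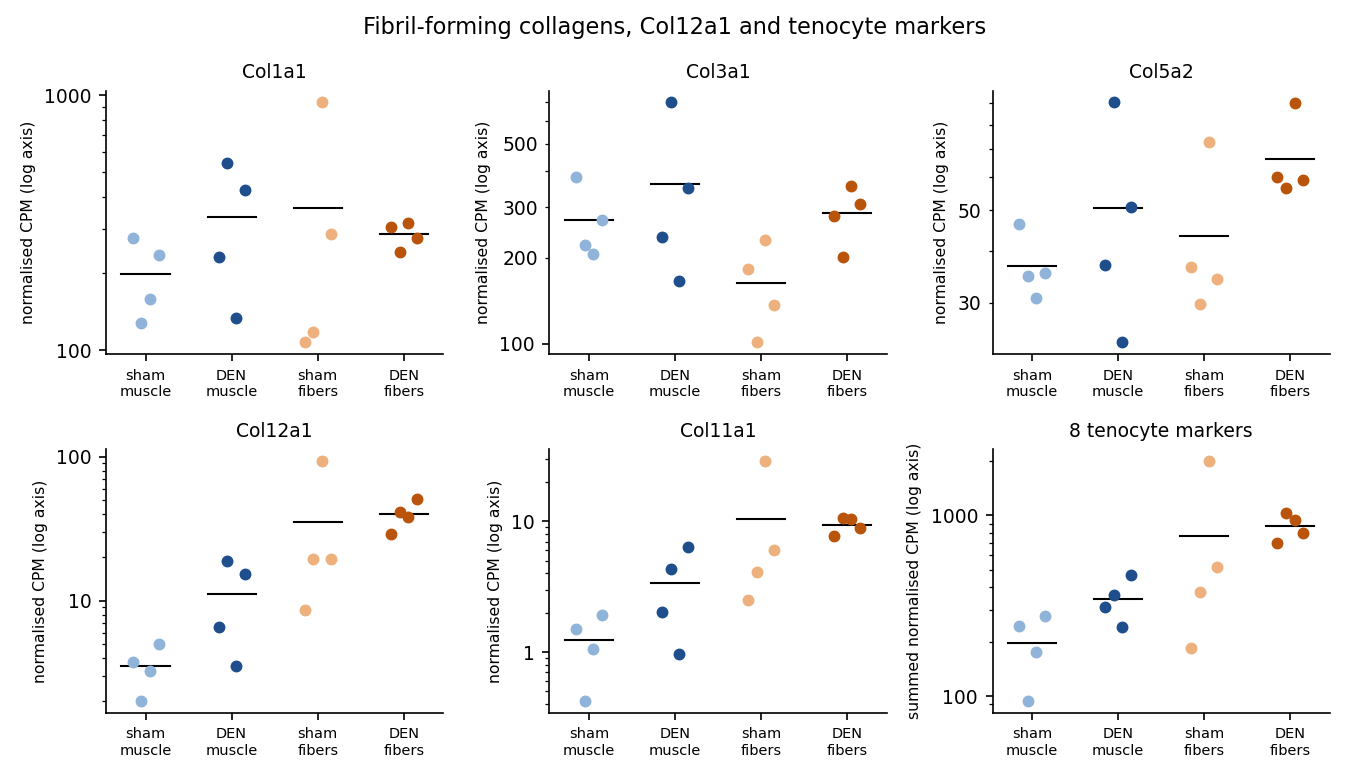
Normalised CPM (log axes) of Col1a1, Col3a1, Col5a2, Col12a1 and Col11a1, and the summed CPM of 8 tenocyte markers, in the 4 libraries of each group with the group mean as a bar. In sham fibers 1 library stands above the others in Col1a1 (938 CPM), Col12a1 (93.3), Col11a1 (29.1) and the tenocyte markers (1998).

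Among the minor fibrillar genes, Col24a1 fell in both preparations. Col24a1 (ENSMUSG00000028197, chr3:145292472-145552011), whose product is known from developing bone, was at 12.9, 12.6, 13.8 and 17.7 CPM in sham fibers and 2.58, 6.02, 3.05 and 3.62 in DEN fibers. Col24a1 was at 12.01, 11.3, 10.8 and 8.84 CPM in sham muscle and 1.41, 2.16, 1.54 and 2.29 in DEN muscle. The sham and DEN libraries did not overlap, and the level was 3.72-fold lower in fibers (log2 fold change -1.90 ± 0.24, adjusted p = 0.000143) and 5.83-fold lower in muscle (log2 fold change -2.54 ± 0.16, adjusted p = 1.64e-07). Its 4 sham fiber libraries lay close together, replicate 3 included. Col11a1 and Col11a2, chains of the collagen XI that occurs with type II in cartilage and in tendon, were highest in that library. Col11a1 was at 2.51, 4.12, 29.1 and 6.09 CPM in sham fibers and 7.73, 10.6, 10.5 and 8.98 in DEN fibers, and at 1.498, 0.423, 1.06 and 1.93 CPM in sham muscle and 2.03, 4.31, 0.961 and 6.32 in DEN muscle. It was called in muscle (log2 fold change 1.43 ± 0.55, adjusted p = 0.0389), with overlapping groups, and the call was lost without DEN muscle replicate 2 or 4 or sham muscle replicate 1, 2 or 3 (0.96 to 1.75 over the 8 fits without 1 library). In fibers Col11a1 did not pass (-0.15, adjusted p = 0.858), but without sham replicate 3 the sign turned and it passed at 1.15. Col11a2 was at 14.2, 13.2, 48.5 and 17.6 CPM in sham fibers and 20.01, 26.3, 20.8 and 24.0 in DEN fibers, and at 13.4, 6.42, 7.93 and 8.38 CPM in sham muscle and 8.62, 8.96, 7.80 and 12.6 in DEN muscle, and passed in neither (-0.03 and 0.06), and it too passed in fibers without sham replicate 3 (0.60). Col27a1, a fibrillar collagen of cartilage, stayed below 9 CPM and was higher in muscle (log2 fold change 0.89 ± 0.23, adjusted p = 0.00631), and Col2a1, the main collagen of cartilage, stayed below 6 CPM and passed in neither.

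Collagen IV moved in different directions by chain. The products of Col4a1 and Col4a2 assemble with each other into the basement membrane found around all fibers and vessels, those of Col4a3, Col4a4 and Col4a5 form another network, and that of Col4a6 assembles with that of Col4a5. Col4a1 was at 319, 269, 252 and 336 CPM in sham muscle and 163, 167, 177 and 165 in DEN muscle. Col4a1 was at 341, 257, 398 and 303 CPM in sham fibers and 308, 259.6, 367 and 322 in DEN fibers. The muscle groups were separate and the fiber groups overlapped. Col4a1 fell 1.76-fold in muscle (log2 fold change -0.82 ± 0.09, adjusted p = 1.24e-05) and did not pass in fibers (-0.04 ± 0.14, adjusted p = 0.831), and the difference between preparations passed (0.76 ± 0.18, adjusted p = 0.00771). Col4a2 was at 274, 226, 221 and 278 CPM in sham muscle and 137, 145, 152 and 139 in DEN muscle, and at 249, 169, 277 and 209.9 CPM in sham fibers and 228, 185, 270.2 and 249.8 in DEN fibers. Its values gave nearly the same changes (log2 fold change -0.81 ± 0.08, adjusted p = 7.59e-06 in muscle; 0.05 ± 0.16, adjusted p = 0.815 in fibers; difference 0.84 ± 0.19, adjusted p = 0.00667). With total counts both were still lower in muscle (-0.39 and -0.38), but in fibers both were called higher (0.45 and 0.55), beside the shift of 0.49 of all genes. The ratio of Col4a1 to Col4a2, per length, was 1.04 ± 0.0272 (SD, n = 4) in sham muscle, 1.04 ± 0.0159 in DEN muscle, 1.28 ± 0.0527 in sham fibers and 1.198 ± 0.0411 in DEN fibers.

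Col4a1 and Col4a2 lie head to head, as do Col4a4 and Col4a3, and the stretch between or shared by their starts is shown because the genes of each pair moved in the same direction. In GRCm38 Col4a1 (chr8:11198423-11312826, minus strand) and Col4a2 (chr8:11312805-11449287, plus strand) overlap by 22 bases at their starts, and Col4a4 (chr1:82448423-82586849, minus strand) and Col4a3 (chr1:82586921-82722059, plus strand) start 71 bases apart. Both stretches are given on the plus strand, with a GC box in capitals.
Col4a1 and Col4a2, chr8:11312805-11312826: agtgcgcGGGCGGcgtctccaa
Col4a4 and Col4a3, chr1:82586850-82586920: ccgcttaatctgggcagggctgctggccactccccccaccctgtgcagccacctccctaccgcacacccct
The first stretch, which belongs to the 5′ ends of both genes, holds 1 GC box and the second holds none. Counting by the authors used the strand, so reads of overlapping opposite genes were separable. Col4a6 (chrX:141165403-141474076) and Col4a5 (chrX:141475385-141689234) face each other on chromosome X with 1308 bases between their starts.

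Col4a3 and Col4a4 fell in both preparations. Col4a3 was at 3.51, 4.06, 4.34 and 4.04 CPM in sham fibers and 1.30, 1.5996, 1.49 and 1.48 in DEN fibers, and at 1.39, 1.74, 1.40 and 1.22 CPM in sham muscle and 0.451, 0.377, 0.480 and 0.411 in DEN muscle. Col4a4 was at 3.06, 3.35, 4.25 and 2.58 CPM in sham fibers and 1.75, 1.63, 1.89 and 1.87 in DEN fibers, and at 2.33, 2.81, 2.17 and 2.41 CPM in sham muscle and 0.886, 1.06, 0.994 and 0.857 in DEN muscle. All surgery groups of both genes were separate on this scale. Col4a3 was 2.71-fold lower in fibers (log2 fold change -1.44 ± 0.12, adjusted p = 8.34e-06) and 3.34-fold lower in muscle (log2 fold change -1.74 ± 0.16, adjusted p = 4.00e-06). Col4a4 was 1.85-fold lower in fibers (log2 fold change -0.89 ± 0.16, adjusted p = 0.00104), which did not pass with total counts (-0.40), and 2.56-fold lower in muscle (log2 fold change -1.36 ± 0.13, adjusted p = 4.38e-06). Col4a5 went the other way. It was at 2.72, 2.37, 3.67 and 2.86 CPM in sham fibers and 10.8, 9.10, 9.91 and 13.4 in DEN fibers, and at 1.103, 0.995, 1.37 and 1.02 CPM in sham muscle and 2.24, 2.55, 2.67 and 2.48 in DEN muscle. Its groups did not overlap, the rise was 3.73-fold in fibers (log2 fold change 1.90 ± 0.16, adjusted p = 1.12e-05) and 2.19-fold in muscle (log2 fold change 1.13 ± 0.13, adjusted p = 1.69e-05), and it was larger in fibers (difference 0.75 ± 0.21, adjusted p = 0.0217). Its neighbour Col4a6 stayed below 1.7 CPM in each library, was too low to test in muscle and did not pass in fibers (log2 fold change 0.92 ± 0.55, adjusted p = 0.188), though it did so without DEN fibers replicate 2 (1.25) and with total counts (1.39).

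**Figure D4:**
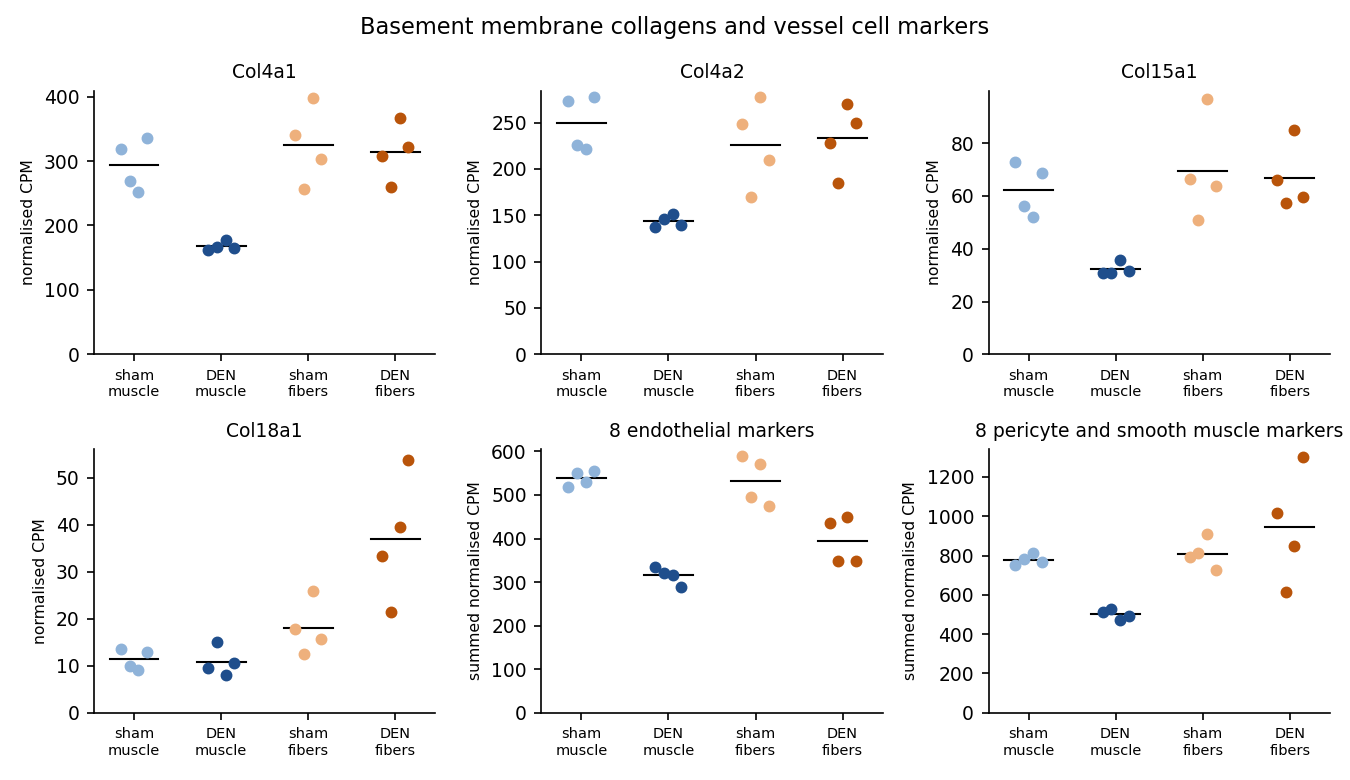
Normalised CPM of Col4a1, Col4a2, Col15a1 and Col18a1, and summed CPM of 8 endothelial and of 8 pericyte and smooth muscle markers, in the 4 libraries of each group with the group mean as a bar (axes start at 0). DEN muscle lies below sham muscle for Col4a1, Col4a2, Col15a1 and both marker sums, and Col18a1 is highest in DEN fibers, at 21.5 to 53.9 CPM.

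Col15a1, a multiplexin of the basement membrane zone whose loss in mice gives a mild muscle disease, moved like Col4a1 and Col4a2. It was at 72.7, 56.1, 51.9 and 68.7 CPM in sham muscle and 30.8, 31.0, 35.7 and 31.6 in DEN muscle, and at 66.3, 50.9, 96.7 and 63.8 CPM in sham fibers and 66.1, 57.3, 85.1 and 59.5 in DEN fibers. The muscle groups were separate and the fiber groups overlapped, with a 1.94-fold fall in muscle (log2 fold change -0.96 ± 0.11, adjusted p = 1.47e-05), no call in fibers (-0.05, adjusted p = 0.855) and a difference that passed (0.90 ± 0.24, adjusted p = 0.015). Markers of vessel cells moved with these genes in muscle. Of 8 endothelial markers 7 were lower there and none higher, and their sum was 518 to 555 CPM after sham and 288 to 334 after DEN. Of 8 pericyte and smooth muscle markers all 8 were lower in muscle, with sums of 753 to 813 and 473 to 526 CPM. In fibers 3 endothelial markers were lower and their sum was 475 to 590.4 CPM after sham and 347 to 449.5 after DEN, while 2 of the pericyte and smooth muscle markers were higher and 1 lower. With total counts 2 endothelial markers were higher and none lower in fibers, where 4 pericyte and smooth muscle markers were higher and none lower, and 5 and 7 were lower in muscle. No marker of either list was at 0 in any group, and the part of vessel cells in the collagen changes was not tested.

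Col18a1, the other multiplexin and the source of endostatin, was at 17.9, 12.5, 25.8 and 15.7 CPM in sham fibers and 33.3, 21.5, 39.6 and 53.9 in DEN fibers. Col18a1 was at 13.7, 10.001, 9.18 and 13.0 CPM in sham muscle and 9.46, 15.03, 8.02 and 10.6 in DEN muscle. The groups overlapped in both preparations. It was higher in DEN fibers by 2.07-fold (log2 fold change 1.05 ± 0.28, adjusted p = 0.0109) and did not pass in muscle (-0.10, adjusted p = 0.662). The difference of 1.13 ± 0.38 (adjusted p = 0.0462) was near the threshold. It was lost without any 1 of 11 libraries, namely DEN fibers replicate 1, 3 or 4, DEN muscle replicate 1, 3 or 4, sham fibers replicate 1, 2 or 4 or sham muscle replicate 1 or 4, and ran from 0.94 to 1.38 over the 16 fits without 1 library. In DEN fibers the summed pericyte and smooth muscle markers were 1015, 612, 849 and 1301 CPM. This sum was highest in replicate 4 and lowest in replicate 2 like Col18a1, but replicate 1 lay above replicate 3 in the sum and below it in Col18a1. Of these 8 markers 2 were called higher and 1 lower in DEN fibers. The part of smooth muscle in this rise was not tested.

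Collagen VI, whose mutations cause human muscle dystrophies, gave few calls in its 3 main chains. Col6a1 was at 71.7, 66.3, 157 and 71.1 CPM in sham fibers and 83.4, 77.6, 98.1 and 81.7 in DEN fibers, and at 112, 81.6, 72.2 and 89.5 CPM in sham muscle and 52.9, 96.4, 47.0 and 68.2 in DEN muscle. Col6a2 was at 70.1, 61.3, 139.6 and 65.6 CPM in sham fibers and 73.7, 69.8, 91.5 and 74.9 in DEN fibers, and at 118, 85.9, 74.8 and 99.7 CPM in sham muscle and 50.9, 96.7, 51.8 and 69.7 in DEN muscle. Col6a3 was at 71.1, 65.2, 136 and 64.9 CPM in sham fibers and 87.0, 73.9, 114 and 96.4 in DEN fibers, and at 73.3, 53.0, 46.8 and 58.6 CPM in sham muscle and 40.0, 61.6, 35.0 and 53.0 in DEN muscle. The surgery groups of all 3 overlapped, and of the 6 tests only Col6a2 in muscle passed (log2 fold change -0.50 ± 0.20, adjusted p = 0.0481). That call was lost with total counts (-0.07) and without DEN muscle replicate 1, 3 or 4 or sham muscle replicate 1, 2 or 4 (-0.72 to -0.37 over the 8 fits without 1 library). Col6a1, whose sign turned, and Col6a3 were called higher in fibers without sham replicate 3 (0.29 and 0.47), and without DEN muscle replicate 2 they were called lower in muscle (-0.67 and -0.45). The level of Col6a3 per Col6a1, per length, was 0.239 ± 0.00162 in sham muscle, 0.267 ± 0.0224 in DEN muscle, 0.344 ± 0.0216 in sham fibers and 0.397 ± 0.0392 in DEN fibers, with no overlap between the preparations.

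The rarer collagen VI chains, encoded by neighbouring genes on chromosome 9, moved in opposite directions. Col6a6 (chr9:105687809-105828160) was at 6.28, 6.52, 5.83 and 4.44 CPM in sham muscle and 2.04, 2.16, 3.00 and 1.75 in DEN muscle, and at 7.02, 10.9, 12.9 and 7.09 CPM in sham fibers and 6.24, 4.68, 8.38 and 5.56 in DEN fibers. Col6a6 was separate and 2.58-fold lower in muscle (log2 fold change -1.37 ± 0.17, adjusted p = 3.81e-05), and did not pass in fibers (-0.60, adjusted p = 0.0532), where it did so without DEN replicate 3 or sham replicate 1 or 4. Col6a5 (chr9:105856078-105960643) was at 0.288, 0.684, 0.463 and 0.212 CPM in sham fibers and 1.12, 1.11, 1.52 and 3.06 in DEN fibers, and at 0.250, 0, 0.192 and 0.0386 CPM in sham muscle and 0.300, 0.181, 0.828 and 0.661 in DEN muscle. The fiber groups were separate and the muscle groups overlapped. Col6a5 was higher in both (log2 fold change 2.04 ± 0.44, adjusted p = 0.00303 in fibers; log2 fold change 1.94 ± 0.69, adjusted p = 0.0285 in muscle), and the muscle call was lost without DEN muscle replicate 3 or 4 or sham muscle replicate 2 or 4 (1.55 to 2.51 over the 8 fits without 1 library). Col6a4 was the only collagen tested in no comparison and stayed below 0.4 CPM.

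Of the remaining collagens, Col8a1 and Col26a1 rose in both preparations. Col8a1, a short-chain collagen of vessel walls and the cornea, was at 5.05, 3.74, 10.2 and 4.49 CPM in sham fibers and 17.1, 16.1, 20.02 and 24.3 in DEN fibers, and at 2.75, 2.54, 2.83 and 3.63 CPM in sham muscle and 4.52, 6.17, 4.29 and 5.77 in DEN muscle. Its groups were separate, with changes of 1.72 ± 0.29 in fibers (adjusted p = 0.000711) and 0.81 ± 0.15 in muscle (adjusted p = 0.000691). Col26a1, known from testis and ovary, was at 0.393, 0.319, 1.45 and 0.614 CPM in sham fibers and 1.61, 1.99, 2.14 and 1.62 in DEN fibers, and at 0.458, 0.249, 0.366 and 0.290 CPM in sham muscle and 0.991, 1.05, 1.24 and 1.09 in DEN muscle. It too was separate, with changes of 1.38 ± 0.39 (adjusted p = 0.0141) and 1.66 ± 0.20 (adjusted p = 2.41e-05). Without sham fibers replicate 3 the change in fibers was 2.04. Col7a1, the collagen of anchoring fibrils in skin, was at 23.6, 25.0, 32.1 and 37.2 CPM in sham fibers and 45.4, 54.5, 53.8 and 45.4 in DEN fibers, and at 58.5, 58.9, 67.6 and 52.6 CPM in sham muscle and 57.7, 61.8, 62.3 and 60.9 in DEN muscle. It rose 1.69-fold in fibers (log2 fold change 0.76 ± 0.14, adjusted p = 0.0014), where the groups were separate, and did not pass in muscle (0.02, adjusted p = 0.766), where it passed with total counts at 0.45. The difference between preparations passed (0.72 ± 0.17, adjusted p = 0.00736). Col10a1, the collagen of hypertrophic cartilage, was singled out after its values were seen. It had no count in the 4 sham muscle libraries and 0.511, 0.837, 0.547 and 0.750 CPM in DEN muscle, 169 counts in all, which is at least 57.0-fold higher when the sham group is set to 3 counts in all and scaled to total counts (adjusted p = 1.36e-05). In fibers it was too low to test with all libraries, at 0, 0.0228, 0.0193 and 0 CPM after sham and 0.243, 0.389, 0.265 and 0.152 after DEN. Without sham fibers replicate 3 all 6 network and other collagens were tested in fibers, Col10a1 among them, and 5 were higher and none lower. Col8a2 and Col28a1 passed in neither preparation and stayed below 15 and 4 CPM. Col8a2 did pass in fibers without sham replicate 3 (1.56), and in muscle without DEN replicate 3 (1.03) and with total counts (1.26).

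More collagens were higher than lower in the fiber preparation when set against whole muscle. In sham mice 20 of 42 tested collagens were higher and 4 lower in fibers than in muscle (47.6% and 9.52%, beside 25.5% and 23.2% of all tested genes), and after DEN 31 were higher and 2 lower of 42 (73.8% and 4.76%, beside 30.2% and 26.4%). The median log2 difference was 1.00 in sham and 1.04 after DEN, beside 0.00 and 0.01 for all tested genes, and without sham fibers replicate 3 the sham median was 0.41, with 19 higher and 6 lower. Without any 1 of the other 7 sham libraries the count of lower collagens was 1 or 2 in place of 4. All 6 collagen IV genes were higher in DEN fibers than in DEN muscle, from 0.74 for Col4a2 to 3.84 for Col4a6 (3.16 without DEN fibers replicate 4), and 20 of 25 tested genes of the other class were higher. Differences called in sham mice included Col19a1 (3.44), Col12a1 (3.31), Col11a1 (3.055), Col2a1 (3.05), Col4a6 (2.72), Col20a1 (2.07), Col9a2 (1.54), Col4a3 (1.46) and Col4a5 (1.35) towards fibers and Col7a1 (-1.03) towards muscle. Leaving out 1 library, those of Col12a1, Col11a1 and Col2a1 fell as low as 2.16, 1.75 and 2.06. Of the 8 tenocyte markers 4 were higher and none lower in sham fibers than in sham muscle, and 6 were higher and none lower in DEN fibers than in DEN muscle. Of 8 markers of fibro-adipogenic progenitors, the fibroblast-like cells of muscle, 1 was higher and 4 lower in sham fibers than in sham muscle. After DEN 3 of these were higher and 1 lower in fibers. Of 8 macrophage markers 1 was higher and 3 lower in sham fibers, and 4 were higher and 2 lower in DEN fibers. Schwann cell markers were higher in sham fibers than in sham muscle for 7 of 8 and lower for none, and after DEN 4 of 5 tested were higher and 1 lower. After DEN 6 of 8 endothelial markers were higher and 1 lower in fibers. At the same time 5 of 8 pericyte and smooth muscle and 4 of 6 muscle stem cell markers were higher and none lower. In sham mice these 3 lists gave 2 higher and 1 lower, 2 higher and 4 lower, and 2 higher and 3 lower. The part of these cells in the collagen differences was not tested, and EDL and TA cannot be told apart from the preparations.

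Tested as a difference between preparations, the DEN response of 7 collagens was more positive in fibers (Col4a1, Col4a2, Col4a5, Col7a1, Col9a1, Col15a1 and Col18a1) and that of 2 was more positive in muscle (Col19a1 and Col20a1). These are 16.3% and 4.65% of 43 tested collagens, beside 7.09% and 11.8% of all tested genes, a split that total counts alone moved to 1488 higher and 1173 lower over all genes and left at 7 and 2 among the collagens. None of the 11 fibrillar genes passed this test. Leaving out sham fibers replicate 3 gave 12 and 2. Of the vessel markers, 3 of 8 endothelial and 6 of 8 pericyte and smooth muscle genes (4 of 8 with total counts) were also more positive in fibers and none more positive in muscle, and their part in the collagen differences was not tested.

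Summed over a class, collagens took a small share of counted reads. Fibrillar genes took 0.102, 0.0586, 0.0595 and 0.0790% of the reads in the sham muscle libraries and 0.0925, 0.230, 0.0599 and 0.154% in DEN muscle, and 0.0489, 0.0498, 0.251 and 0.0851% in sham fibers and 0.146, 0.118, 0.179 and 0.136% in DEN fibers. The muscle groups overlapped, and the fiber groups did so only through sham replicate 3. Collagen IV took 0.0518, 0.0423, 0.0399 and 0.0530% in sham muscle and 0.0349, 0.0365, 0.0374 and 0.0349% in DEN muscle, which did not overlap, and 0.0472, 0.0385, 0.0618 and 0.0447% in sham fibers and 0.0661, 0.0536, 0.0843 and 0.0683% in DEN fibers, which did. The other collagens took 0.0468, 0.0353, 0.0335 and 0.0398% and 0.0356, 0.0538, 0.0331 and 0.0434% in muscle and 0.0350, 0.0368, 0.0758 and 0.0376% and 0.0653, 0.0635, 0.0859 and 0.0706% in fibers. These shares are of total counts, so DEN groups lie higher here than on the TMM scale.

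**Figure D5:**
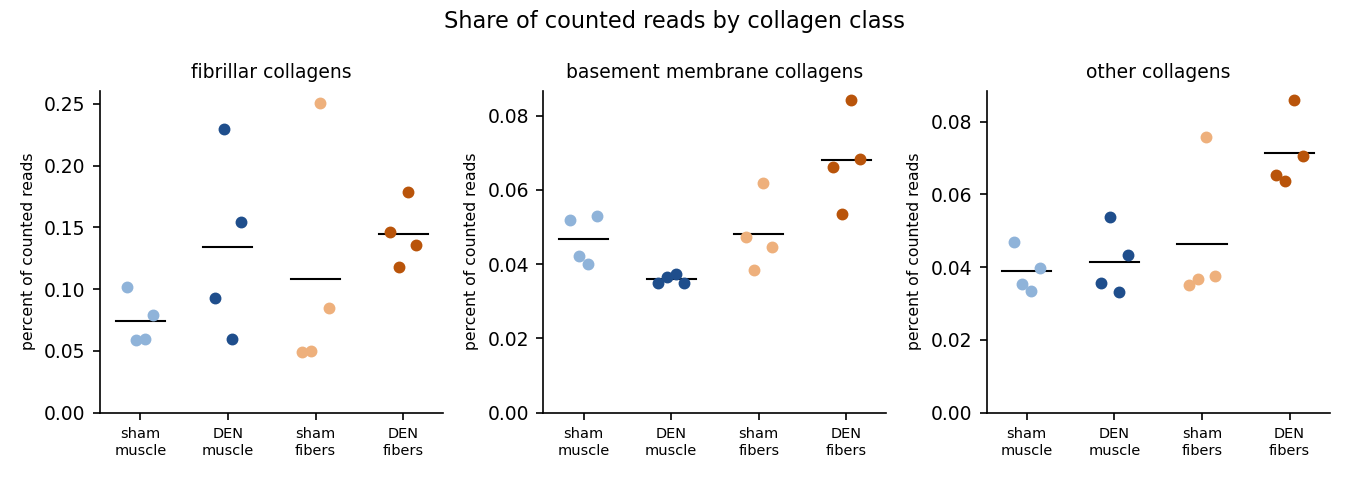
Percent of counted reads taken by the 11 fibrillar, 6 collagen IV and 27 other collagen genes in the 4 libraries of each group, with the group mean as a bar (axes start at 0). Collagen IV is lower in DEN muscle (mean 0.0359%) than in sham muscle (0.0468%), and sham fibers hold 1 library far above the others among fibrillar genes (0.251%).

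Genes that make, process, bind or cut collagen were followed as lists. As with the members, the lists were drawn up with earlier results of these data known. Among all tested genes 27.1% were higher and 27.0% lower in fibers, and 34.0% were higher and 32.2% lower in muscle. The counts of each list below stand beside these shares, and no list was tested as a set. Of 21 synthesis genes tested 4 were higher and 3 lower in fibers and 5 were higher and 8 lower in muscle. P3h2, a prolyl 3-hydroxylase active on collagen IV, was higher in both (log2 fold change and SE 1.66 ± 0.33 in fibers and 1.41 ± 0.15 in muscle), as was Plod2, the lysyl hydroxylase that prepares telopeptides for crosslinking (0.73 ± 0.16 and 1.53 ± 0.12), while P4ha2, a subunit of prolyl 4-hydroxylase, was lower (-0.69 ± 0.09 and -1.09 ± 0.07). Tmem38b, an ion channel of the endoplasmic reticulum, was higher in fibers (0.56 ± 0.06), and P4ha3 was higher in muscle (5.57 ± 1.00). Of 14 processing and crosslinking genes 1 was higher in fibers (Adamts14, a procollagen protease, 0.61 ± 0.23), and 1 was higher and 4 lower in muscle, where Lox, which crosslinks fibrils, stood at 1.83 ± 0.19, Pcolce2 at -1.08 ± 0.15, Adamts2 at -0.59 ± 0.20 and Pxdn, which crosslinks collagen IV, at -0.73 ± 0.16. The list medians were 0.05 and -0.15 for synthesis and 0.12 and -0.13 for processing, in fibers and muscle. With total counts 14 of the 21 synthesis genes were higher and none lower in fibers, and 12 were higher and 2 lower in muscle. Of the processing genes 7 were higher and none lower in fibers, and 4 were higher and 1 lower in muscle. All tested genes moved too with total counts, to 59.5% higher and 8.93% lower in fibers and 60.95% and 13.9% in muscle. The total-count splits of the lists below stand beside the same shares. On that scale P4ha2 in fibers (-0.21) and Pxdn (-0.30) and Adamts2 (-0.16) in muscle did not pass.

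Of 17 fibril-associated proteins 6 were higher in fibers and none lower, and 6 were higher and 4 lower in muscle, or 8 and 0 and 7 and 2 with total counts. Postn (periostin) was higher in both (2.01 ± 0.23 and 2.95 ± 0.58), with Eln (elastin, 1.32 ± 0.44), Bgn (biglycan, 1.28 ± 0.28) and Lum (lumican, 1.04 ± 0.22) in fibers and Tnc (tenascin-C, 2.52 ± 0.47), Fn1 (fibronectin, 2.05 ± 0.50) and Comp (a tendon and cartilage protein, 1.65 ± 0.39) in muscle. Partners of collagen IV in the basement membrane fell in muscle, where 11 of 12 were lower and none higher, including the linker nidogens Nid1 (-1.10 ± 0.08) and Nid2 (-0.84 ± 0.10), the laminin chain Lamc1 (-0.86 ± 0.07) and Smoc2 (-0.85 ± 0.07). The list median there was -0.79, close to the -0.82 of Col4a1, and with total counts 8 were called lower and 1 higher. In fibers 1 was higher (Agrn, agrin, 0.51 ± 0.09) and 1 lower (Lama4, a laminin chain of vessels, -0.36 ± 0.13, not passed with total counts at 0.13, when 5 were higher and none lower), with a median of -0.14. For 5 of the 12 the difference between preparations passed, each more positive in fibers.

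Of 11 collagen receptors 4 were higher and 1 lower in fibers, and 3 were higher and 5 lower in muscle, which became 4 and 0 and 4 and 1 with total counts. Ddr1, a receptor kinase for collagen, was higher in both (0.80 ± 0.06 and 0.76 ± 0.07), and Dag1 (dystroglycan, a laminin receptor) was lower in both (-0.41 ± 0.08 and -0.68 ± 0.08). The integrin genes Itgb1 (0.67 ± 0.08) and Itga7 (0.34 ± 0.09) were higher in fibers, and the collagen-binding Itga11 (-0.77 ± 0.20) and Itga1 (-0.62 ± 0.12) were lower in muscle. Of these falls, Dag1 in fibers (0.07) and Itga11 (-0.34) and Itga1 (-0.19) in muscle did not pass with total counts. Among collagenases and their inhibitors, 2 were higher and 2 lower of 11 in fibers and 5 were higher and 3 lower of 10 in muscle, which became 5 and 0 and 7 and 3 with total counts. Ctsk (cathepsin K) was higher in both (0.96 ± 0.28 and 1.89 ± 0.36), Mmp15 (-0.68 ± 0.14) and Timp3 (-0.57 ± 0.12) were lower in fibers but not with total counts (-0.18 and -0.08), and Mmp13 (6.37 ± 1.14), Timp1 (4.71 ± 0.28) and Mmp9 (2.03 ± 0.60) were higher in muscle. Of 7 synaptic partners of collagens 3 were higher and 3 lower in each preparation, or 4 and 1 in fibers and 4 and 2 in muscle with total counts. Musk, the receptor kinase of the synapse, was higher (2.91 ± 0.08 and 2.91 ± 0.18), as was the receptor phosphatase Ptprd (1.04 ± 0.15 and 1.18 ± 0.09), and Ache, the acetylcholinesterase that a collagen tail anchors at the synapse, was lower (-1.85 ± 0.17 and -1.95 ± 0.07), as was Ptprs (-0.62 ± 0.08 and -1.03 ± 0.08), though not in fibers with total counts (-0.13).

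Other cell types also moved with surgery and are given as measured. Beside them, 27.1% of all tested genes were higher and 27.0% lower in fibers, and 34.0% and 32.2% in muscle. With total counts these shares were 59.5% and 8.93% in fibers and 60.95% and 13.9% in muscle. Of 8 macrophage markers 8 were higher in fibers and 4 in muscle, with sums of 27.6 to 55.9 and 100.02 to 131 CPM in sham and DEN fibers and 51.2 to 113 and 98.2 to 110.1 in sham and DEN muscle. Of 8 markers of fibro-adipogenic progenitors, the fibroblast-like cells of muscle, 3 were higher and none lower in fibers (58.9 to 132 and 112 to 172 CPM), and 2 were higher and 3 lower in muscle (91.8 to 129 and 82.5 to 153 CPM). Of 8 Schwann cell markers 5 were lower and 1 higher in fibers (86.2 to 150.3 and 12.2 to 45.3 CPM), and 4 were lower and 1 higher in muscle (28.3 to 39.7 and 15.1 to 19.1 CPM). Of 6 muscle stem cell markers none passed in fibers and 2 were lower in muscle, with sums of 35.7 to 58.9, 40.9 to 52.3, 42.7 to 47.7 and 32.5 to 40.5 CPM in sham fibers, DEN fibers, sham muscle and DEN muscle. Of 8 tenocyte markers 1 was higher in fibers and 3 in muscle. With total counts 3 muscle stem cell markers were higher in fibers and 2 in muscle and none was lower in either, all 8 macrophage markers were higher in muscle, and 6 progenitor markers were higher in fibers and 5 higher and 2 lower in muscle. On that scale 2 Schwann cell markers were higher and 3 lower in muscle, and 5 tenocyte markers were higher there. No marker of these lists was at 0 over a group, and the part of these cells in the collagen results was not tested.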

How the data were processed

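RNA from 4 libraries of each of 4 groups was sequenced single end after poly(A) selection and a directional library preparation. The study's methods name different mice as replicates, and whether EDL and TA came from the same animals is not given. The authors trimmed reads with cutadapt 2.1, aligned them with TopHat2 2.1.0 to GRCm38 and counted them by strand with featureCounts 1.6.5 (bcl2fastq 2.20.0.422 made the read files). They deposited raw read counts per gene, RPM values (the RPM of a library sum to the same total in each) and RPKM values, which also divide by a gene length whose definition is not given in the sources used here. The deposited RPM equal the counts divided by the total, to within 5.1e-11. No pair of replicates was so alike as to be 1 library deposited again.

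Counts were tested with edgeR 4.0.16 in R 4.3.3 (limma 3.58.1), with a minimum count of 10, TMM factors, the quasi-likelihood F-test and Benjamini-Hochberg adjustment over all tested genes at 0.05. Each comparison of 2 groups was fitted on its 8 libraries, and the difference between preparations on all 16, where its log2 value can depart slightly from the difference of both fits. Fold changes are DEN over sham, or fibers over muscle, with standard errors derived from the F statistic. The test was run on simulated counts. Alternatives were total counts alone, DESeq2-style size factors, no filter, a minimum count of 50, DESeq2 1.42.0, all 16 libraries in 1 fit, the replicate number as a block, and leaving out each library. Levels between genes were compared on RPKM. Sequences came from RefSeq.

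The members, classes and gene lists were chosen with earlier results of these data known. Values in each library are given for the 34 members with a group mean of at least 10 RPM, or of at least 1 RPM with an adjusted p under 0.05 and an absolute log2 change of at least 1 in a DEN comparison or the difference. From each list of partner genes, up to 4 with the largest called changes and a mean of at least 1 RPM in the higher group are named.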

Additional observations from a re-analysis of the deposited data

Results flagged for a closer look

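In 12 of 136 groups of 4 libraries, taken over the 34 members with values in each library, 1 library lay far from the other 3. The rule is set to flag about 1 in 20 groups when the values within a group are normally distributed. Genes of the same libraries are not independent, so the count carries no test. In sham fibers the flagged library was replicate 3, above the others in Col5a2 (72.7 CPM), Col5a3 (82.2), Col6a1 (157), Col6a2 (139.6), Col6a3 (136), Col11a1 (29.1), Col11a2 (48.5), Col12a1 (93.3) and Col16a1 (24.6). That library also held the highest summed level of tenocyte markers of all 16, 1998 CPM, and the part of tendon RNA in these values was not tested. DEN fibers replicate 3 was high in Col5a2 (90.03 CPM), DEN fibers replicate 4 was low in Col19a1 (4.33 CPM), and DEN muscle replicate 1 was high in Col9a2 (0.135 CPM).

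For 9 collagens the DEN effect in fibers differed from that in muscle by the test of the difference itself. On the log2 scale the difference was 0.76 for Col4a1, 0.84 for Col4a2, 0.75 for Col4a5, 0.72 for Col7a1, 1.77 for Col9a1, 0.90 for Col15a1 and 1.13 for Col18a1, each more positive in fibers, and -1.93 for Col19a1 and -1.01 for Col20a1, each more positive in muscle. Of these, Col9a1 and Col18a1 lost the call without some single libraries.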

How the results depend on the processing

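With total counts alone as library size, the collagens called in fibers went from 11 higher and 7 lower to 17 and 4, the count lower in DEN fibers than in DEN muscle went from 2 to 1, and Col4a1 in fibers turned to 0.45 (log2). A minimum count of 50, and all 16 libraries in 1 fit, each left 2 collagens lower in sham fibers than in sham muscle and 1 lower in DEN fibers than in DEN muscle. Leaving out 1 library at a time, the count higher in DEN fibers ran from 9 to 21, that lower in sham fibers than in sham muscle from 1 to 6, and that with a more positive effect in fibers from 5 to 12, with the highest count without sham fibers replicate 3 each time. Over the same fits the change in fibers ran from -0.21 to 0.29 for Col6a1, -0.45 to 1.15 for Col11a1 and -0.22 to 0.60 for Col11a2, and sham fibers against sham muscle ran from -0.36 to 0.15 for Col6a1, each turning its sign without sham fibers replicate 3. With DESeq2, 160 of 169 member results kept direction and side of the threshold, and without a filter on low counts 164 of 169 did. Replicate numbers were not used to pair the samples in the main fits. Deviations of same-numbered libraries correlated at -0.12 to 0.38, which cannot decide whether the numbers mark shared animals. With the replicate block the collagens called were 12 higher and 9 lower in fibers and 12 and 14 in muscle. At this depth, members below 1 CPM rest on few reads. Col6a4 was not tested in any comparison.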
